A study of Rattus norvegicus with 6 samples.

Results

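Collagens are proteins of the extracellular matrix in which 3 polypeptide chains wind into a triple helix, and each chain is the product of its own gene. The genes examined here were all rows of a gene count table whose symbol had the form of a collagen chain (Col, a type number, the letter a and a chain number), which gave 35 chains of 14475 genes. RNA had been sequenced from vascular smooth muscle (VSM) cells in culture. They came from the soleus feed arteries (SFA) of Fischer 344 rats, the small arteries that supply the soleus muscle of the leg. The young group was 4 months old and the old group 24 months old, with 3 libraries from 3 rats in each, and no treatment or genetic change was applied to either. The cells had been grown in serum-containing medium before RNA was taken, so the values describe cells in culture and not the artery wall. Since all transcripts of a culture were read together, fewer cells of a type and less RNA per cell cannot be told apart in any value below.

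The chains were grouped by the structure they build. Fibrillar collagens (types I, III, V, XI, XXIV and XXVII) assemble, or regulate the assembly of, the banded fibrils that carry tension in the artery wall. Network collagens form sheets, with type IV as the scaffold of the basement membrane that surrounds each smooth muscle cell and types VIII and X as short-chain networks. FACIT collagens (fibril-associated collagens with interrupted triple helices) sit on the surface of fibrils, the beaded filaments of type VI link cells to the matrix around them, multiplexins (types XV and XVIII) join basement membranes to that matrix, and transmembrane collagens (types XVII, XXIII and XXV) are anchored in the cell surface. Type VII, which forms the anchoring fibrils of skin, was kept in a class of its own.

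The table held 10 fibrillar, 8 network, 7 FACIT, 4 beaded, 2 multiplexin and 3 transmembrane chains besides Col7a1. The reference annotation names 44 such genes in the rat. Col2a1, Col4a4, Col6a4, Col6a5, Col9a1, Col13a1, Col22a1, Col26a1 and Col28a1 were not among the rows and were not analysed here. Of the 35 chains, 18 had a mean of at least 100 CPM (the counts of a gene per 1e6 counts of its library, scaled between libraries by edgeR's TMM factors). A further 8 had a mean under 1 CPM, and 6 had fewer than 10 counts in at least 1 library.

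Reference promoter sequences, the 250 bases before the annotated start in the GRCr8 assembly of RefSeq, were available for 28 of the 35 chains. Col1a1, Col3a1, Col6a2, Col9a3, Col12a1, Col14a1 and Col25a1 had none. These windows held a median of 59.4% G and C and 10.5 CpG sites, against 51.2% and 5 over 33469 windows of all genes. Several short motifs were searched on both strands. GGGCGG, the core of a GC box, was found for 19 of the 28 chains (67.9%) and in 30.5% of all windows. CCAAT was found for 8 chains and in 34% of all windows. TATAAA was found for 3 chains (Col1a2, Col10a1 and Col17a1) and in 12.9% of all windows. CAGACA, which holds the core letters bound by SMAD factors, was found for 5 chains and in 17.2% of all windows. TGANTCA, the site of AP-1 factors, was found for Col6a1 alone and in 6.34% of all windows, and the CArG box, the site of serum response factor, was found for 0 chains and in 1.5% of all windows. A match of letters is a description of the window and not a mapped binding site.

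Sequences of 4 regions are printed for the chains on which the comparison turns, with matched motifs in capitals. Col1a2, the only chain of the 3 abundant fibrillar chains with a window, is shown at chr4:33518307-33518412 (plus strand), where ATTGG is CCAAT read on the other strand. These are the first 106 bases of its window, which runs on to 33518556. The bases between the end of the print and the annotated start are not shown. Col15a1 (chr5:66297296-66297545, plus strand), the chain with the lowest p-value by edgeR, held none of the motifs. Col4a3 (chr9:91323740-91323989, plus strand) held GGGCGG. Col4a1 and Col4a2 start in opposite directions with 76 bases between their starts (chr16:84885521-84885596, plus strand), and CCGCCC there is GGGCGG read on the other strand.
Col1a2: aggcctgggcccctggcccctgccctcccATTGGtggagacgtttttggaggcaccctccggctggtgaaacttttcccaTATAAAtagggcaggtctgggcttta
Col15a1: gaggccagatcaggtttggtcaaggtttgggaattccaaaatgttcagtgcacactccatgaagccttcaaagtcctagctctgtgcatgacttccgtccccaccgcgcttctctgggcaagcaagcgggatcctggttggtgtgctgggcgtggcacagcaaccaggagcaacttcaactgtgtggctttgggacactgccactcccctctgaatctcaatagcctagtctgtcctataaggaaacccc
Col4a3: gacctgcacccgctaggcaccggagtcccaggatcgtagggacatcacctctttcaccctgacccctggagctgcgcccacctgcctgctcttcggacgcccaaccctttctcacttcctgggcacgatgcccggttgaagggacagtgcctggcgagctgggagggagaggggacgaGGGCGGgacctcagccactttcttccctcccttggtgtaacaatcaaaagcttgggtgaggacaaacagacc
Col4a1 and Col4a2: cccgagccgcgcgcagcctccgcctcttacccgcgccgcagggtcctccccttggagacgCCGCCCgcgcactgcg

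The libraries held 44235674 to 59700887 counts. All 12 contractile smooth muscle markers were present and had lower values in old VSM cells, with a summed level of 17185 to 29348 CPM in young and 6270 to 9522 CPM in old libraries. Acta2, which encodes smooth muscle alpha-actin, was between 4972 and 10381 CPM in young and between 1126 and 2201 CPM in old libraries. Of 12 fibroblast markers 10 were in the table and 8 were higher in old VSM cells, with a summed level of 964 to 1316 CPM in young and 1322 to 1790 CPM in old libraries. Pdgfra, a receptor found on fibroblasts, was at 307, 242 and 153 CPM in young and 376, 635 and 381 CPM in old libraries. Clec3b, another marker on that list, had a mean of 2.04 ± 0.754 CPM in young and 18.2 ± 6.14 CPM in old libraries (SD, n = 3), and Dpp4 had 0.0431 ± 0.0444 CPM and 0.806 ± 0.537 CPM. The young Dpp4 values (0.0886, 0 and 0.0407 CPM) were near the limit of detection, so the size of its difference is uncertain. The most abundant member, Mfap5, ran from 486 to 738 CPM in young and 494 to 588 CPM in old libraries and was lower by value, as was Gsn (219 to 287 and 170 to 255 CPM), both named after their values were seen. The 8 proliferation markers were all lower in old VSM cells, with sums of 409 to 636 CPM in young and 117 to 451 CPM in old libraries. Cdh5 of endothelial cells, Myod1, Myog and Pax7 of skeletal muscle, Ptprc of leukocytes and Sox10 of Schwann cells were not among the rows. Where such lists had members in the table, their summed levels were 43.6 to 48.1 CPM in young and 33.5 to 45.3 CPM in old libraries for endothelial cells (8 of 12 markers), 89.6 to 268 and 34.2 to 48.7 CPM for skeletal muscle (6 of 16, mostly Acta1 at 72.1 to 256 CPM in young and 5.97 to 17.6 CPM in old libraries, while Tnnt3 and Neb were higher in old cells by value) and 5.13 to 15.97 and 10.4 to 16.8 CPM for macrophages (3 of 9). They were 23.3 to 79.3 and 56.6 to 101 CPM for Schwann cells (5 of 8) and 904 to 1373 and 667 to 1520 CPM for pericytes (4 of 6). The summed levels did not overlap between groups for the contractile, fibroblast and skeletal muscle lists and overlapped for the proliferation list. By the thresholds given below, edgeR called 0 genes in each of these 4 lists and 1 of all genes. DESeq2, a second tool, called 9 of the 12 contractile markers, all lower, and 2 of the 10 fibroblast markers, both higher. It called 1 of 6 skeletal muscle and 1 of 8 proliferation markers, both lower, against 5.56% of all genes. DESeq2 also called 2 of 8 endothelial markers (Flt1 and Erg) and 1 of 4 pericyte markers (Cspg4), all lower. It called 0 of the macrophage and 0 of the Schwann cell markers. Flt1 and Erg were low, with means of 6.89 and 4.25 CPM in young and 0.469 and 1.04 CPM in old libraries. An unadjusted edgeR p under 0.05 was found for all 12 contractile markers, against 22.6% of all genes. The part of these lists in the collagen values was not tested.

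Collagen genes took a larger share of all counts in old than in young VSM cells. The share was 6.54%, 5.45% and 6.89% in the young libraries and 9.42%, 10.1% and 12.2% in the old ones, and the groups did not overlap. An exact two-sided permutation test of 3 against 3 libraries gave p = 0.1, the smallest value that test can reach. The mean was 6.29 ± 0.754% in young and 10.6 ± 1.48% in old cells (SD, n = 3). Most of it was counted on Col1a1, Col1a2 and Col3a1, which together took 76.8% of all collagen counts. These 3 chains made up 4.77%, 3.84% and 4.90% of the young and 7.52%, 8.0% and 9.87% of the old libraries. The other chains together made up 1.77%, 1.61% and 1.99% of the young and 1.90%, 2.07% and 2.38% of the old libraries, and there the groups overlapped. The difference in share was thus carried mostly by these 3 genes.

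The make-up of the collagen counts also differed between the groups. The fibrillar class took 84.8%, 83.6% and 82.7% of collagen counts in young and 88.2%, 87.6% and 88.4% in old libraries. The network class took 6.43%, 8.85% and 10.04% in young and 4.10%, 4.0% and 3.77% in old libraries. Multiplexins took 0.537%, 0.674% and 0.751% in young and 0.170%, 0.133% and 0.122% in old libraries. In each of these 3 classes the groups did not overlap, and the same exact permutation test gave p = 0.1, its smallest value. Most multiplexin counts were on Col15a1, with 14940 against 598 on Col18a1 in young replicate 1 and 6785 against 1267 in old replicate 1. Col18a1 was higher in old cells by value (log2 0.35), so the multiplexin share mostly restates the difference of Col15a1. FACIT chains took 5.34%, 3.27% and 2.59% in young and 3.41%, 6.19% and 3.43% in old libraries, and beaded chains took 2.88%, 3.56% and 3.90% against 4.13%, 2.02% and 4.23%, with overlap in both. These shares are relative to the other classes. As a percent of all counts, network chains took 0.420%, 0.482% and 0.692% of the young and 0.386%, 0.403% and 0.462% of the old libraries, and there the groups overlapped.

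**Figure D1:**
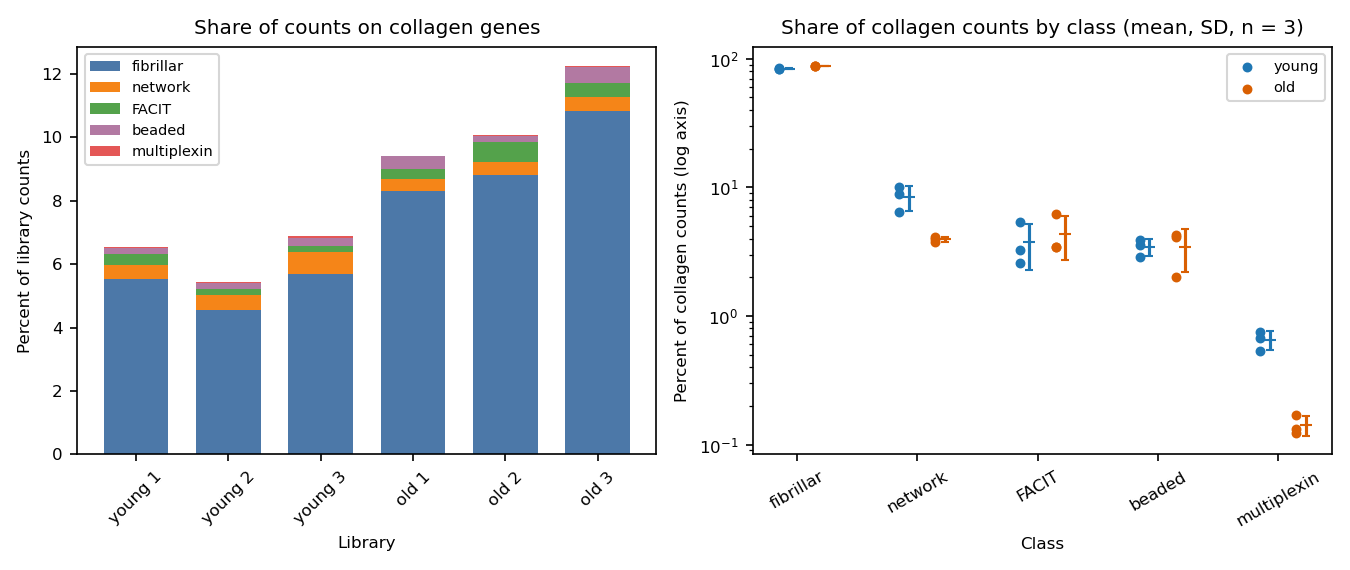
Percent of each library counted on collagen genes and percent of collagen counts taken by each structural class, as stacked bars by library (left) and as points by library with the group mean and SD on a log axis (right). All 3 old libraries (9.42% to 12.2%) sit above all 3 young libraries (5.45% to 6.89%) in the total share, and the network and multiplexin classes take less of the collagen counts in old libraries. Most multiplexin counts were on Col15a1.

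Each chain was then compared between groups by edgeR's quasi-likelihood test over all 14475 genes, with young cells as the reference and a positive log2 fold change meaning a higher level in old cells. A gene was called where the Benjamini-Hochberg adjusted p was under 0.05 and the log2 fold change was 1 or more in either direction. By that rule 0 of the 35 chains were called, against 1 of all genes (0.00691%). Without adjustment, 11 chains had p under 0.05 (31.4%, against 22.6% of all genes). Of these, 8 were higher in old cells (22.9% of chains, against 11.2% of all genes) and 3 were lower (8.57%, against 11.5%). DESeq2, with the same 2 thresholds, called 4 chains (11.4%, against 5.56% of all genes), with Col3a1 and Col14a1 higher (2.25% of all genes were called in that direction) and Col4a3 and Col15a1 lower (3.31%). Limma-voom called 0 chains and 0 genes, and gave an unadjusted p under 0.05 to 11 chains and to 23.1% of all genes. At an adjusted p under 0.1, edgeR called Col4a3, Col14a1 and Col15a1, 3 chains against 2.63% of all genes. Without old replicate 1 it called Col11a2, Col14a1 and Col15a1 at 0.05, against 5.06% of all genes.

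Across the list, 24 chains were higher and 11 lower in old cells, so that 68.6% were higher against 52% of all genes. The median log2 fold change of the chains was 0.37 against 0.018 over all genes. The groups did not overlap for 10 chains (28.6%, against 29.2% of all genes), of which 7 were higher (20%, against 14.5%) and 3 lower (8.57%, against 14.7%). A log2 fold change of 1 or more in either direction was found for 8 chains (22.9%, against 11.4% of all genes). Among these, Col6a6, Col9a3 and Col19a1 had a mean under 1 CPM, and Col11a2 ran from 0.916 to 4.83 CPM. The classes did not share a direction. The higher chains were found mainly among fibrillar (9 of 10), FACIT (6 of 7) and beaded chains (4 of 4), and 6 of 8 network chains were lower. These counts go by sign alone and include chains near 0, such as Col5a2 (0.04) and Col9a2 (0.01). Every old library was above every young one for 3 fibrillar, 4 FACIT and 0 beaded chains. Among the network chains, every old library was below every young one for 1, Col4a3.

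**Figure D2:**
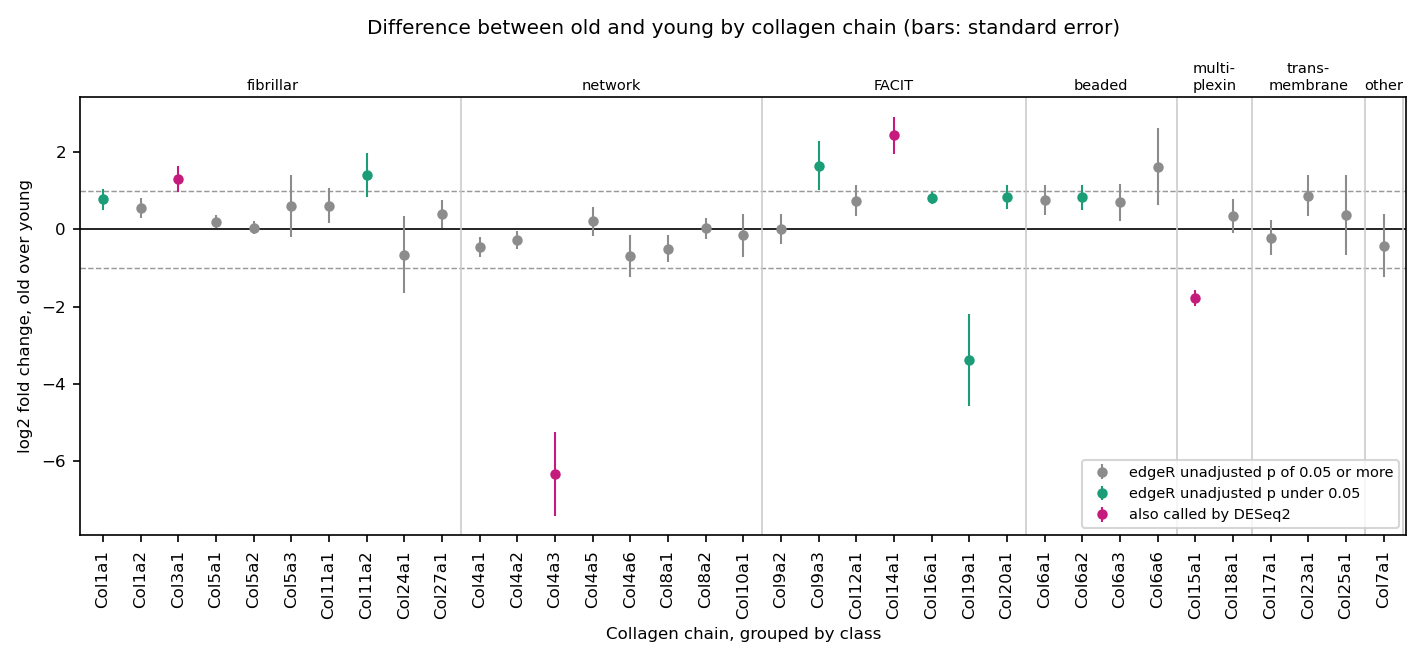
Log2 fold change of old against young VSM cells for each of the 35 chains, ordered by structural class. Bars give the standard error derived from the edgeR F statistic. There is a line at 0, dashed lines at -1 and 1, and colours for the unadjusted p under 0.05 and the DESeq2 call. Col14a1 (2.43) and Col3a1 (1.31) stand on the higher side and Col15a1 (-1.76) and Col4a3 (-6.33) on the lower side, while most other chains lie within 1 of the line.

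Among the fibrillar chains, the median log2 fold change was 0.58 and the range -0.65 to 1.41. Col3a1 (ENSRNOG00000003357), the chain of the type III collagen found in distensible tissues, was at 15713, 10286 and 13204 CPM in young and 26215, 27857 and 42980.4 CPM in old libraries. Every old library was above every young one, and old replicate 3 was the highest. The mean was 13068 ± 2716 CPM in young and 32351 ± 9242 CPM in old cells (SD, n = 3), a fold of 2.48 (log2 1.31, SE 0.33). The edgeR adjusted p was 0.111, and DESeq2 gave 5.74e-05.

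Type I collagen, the main load-bearing fibril, is built from 2 chains of Col1a1 and 1 of Col1a2. Col1a1 (ENSRNOG00000003897) was at 17637, 14928 and 21235 CPM in young and 29272, 30522 and 32726 CPM in old libraries, again without overlap. Its log2 fold change was 0.78 (SE 0.27), with an adjusted p of 0.173 by edgeR and 0.000277 by DESeq2, which did not call it because the change was below the size threshold. Col1a2 (ENSRNOG00000011292) was at 13356, 12908 and 16744 CPM in young and 20448, 18928 and 23852 CPM in old libraries. Those groups did not overlap either, with a log2 fold change of 0.56 (SE 0.25) and an adjusted p of 0.245 by edgeR and 0.0188 by DESeq2.

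Type V and type XI chains lie inside the fibrils of types I and III and set their diameter. Col5a2, the fourth chain by counts, was at 4716, 4833 and 5369 CPM in young and 4757, 5042 and 5576 CPM in old libraries. The groups overlapped almost fully, with a log2 fold change of 0.04 (SE 0.17, adjusted p = 0.897). Col5a1 differed by 0.19 (SE 0.17, adjusted p = 0.507), from 1618 to 2064 CPM in young and 1952 to 2396 CPM in old libraries. Col3a1, with its log2 fold change of 1.31, lies next to Col5a2 on chromosome 9.

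Col5a3, the third type V chain, was at 67.3, 61.5 and 345 CPM in young and 186, 107 and 426 CPM in old libraries, and replicate 3 of each group was the highest. Its log2 fold change of 0.60 (SE 0.81) was smaller than its spread. Col11a2 (ENSRNOG00000000463), better known from cartilage, was at 1.37, 1.33 and 0.916 CPM in young and 1.01, 4.83 and 3.82 CPM in old libraries. Old replicate 1 lay among the young libraries and the other two above them, and the log2 fold change was 1.41 (SE 0.57, adjusted p = 0.212). Its partner Col11a1 was at 929.6, 533 and 539 CPM in young and 555, 805 and 1702 CPM in old libraries, with a log2 fold change of 0.61 (SE 0.45, adjusted p = 0.440). Col24a1 and Col27a1, the remaining fibrillar chains, differed by -0.65 (SE 0.99) and 0.39 (SE 0.36).

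**Figure D3:**
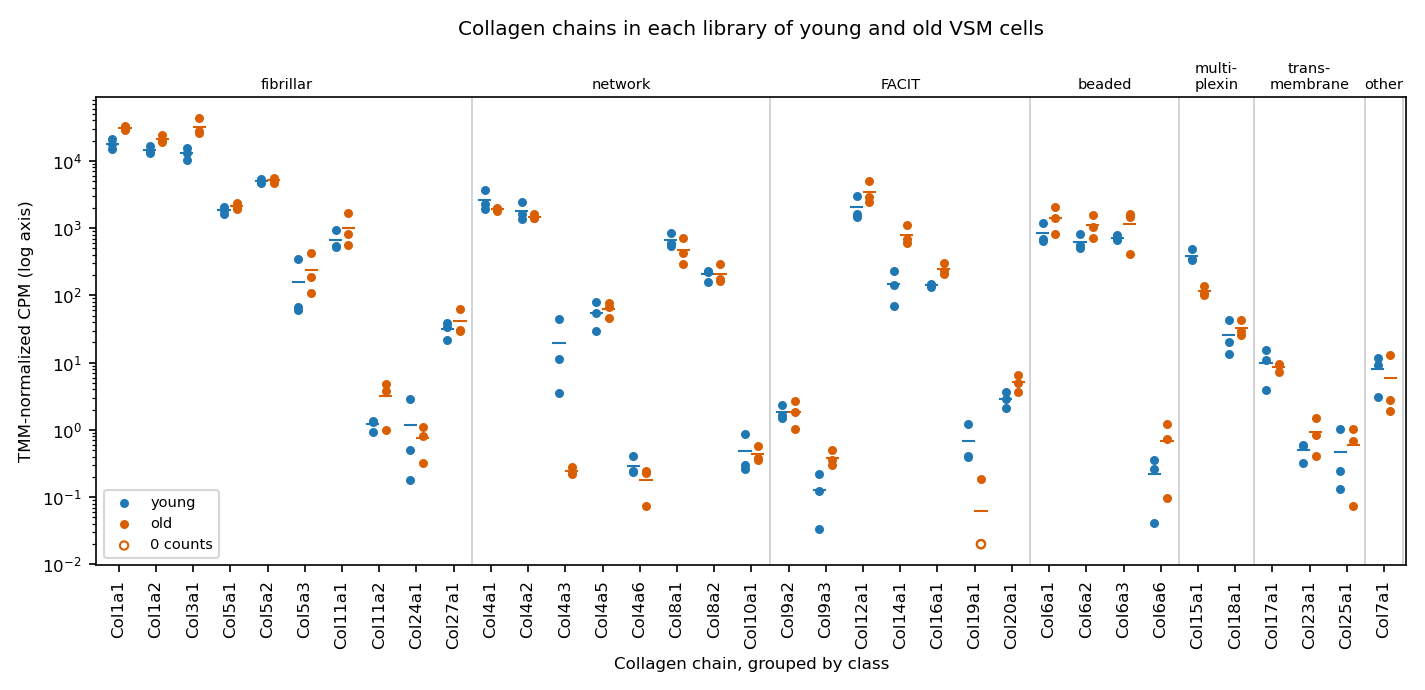
CPM of the collagen chains in each library on a log axis, with a point for each young and old library, a line at each group mean and open circles for 0 counts. Col14a1 and Col3a1 separate with old above young, Col15a1 and Col4a3 separate with old below young, and Col5a2 shows young and old points on top of each other.

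Among the network chains the median log2 fold change was -0.37, with a range of -6.33 to 0.21. Col4a3 (ENSRNOG00000015365) encodes the alpha3 chain of type IV collagen, which is known from specialised basement membranes such as that of the kidney glomerulus. It was at 3.57, 11.2 and 44.9 CPM in young libraries (161, 675 and 2207 counts) and 0.281, 0.231 and 0.224 CPM in old ones (14, 12 and 12 counts). All old libraries were below all young ones, and the young libraries differed widely among themselves, with young replicate 3 far above the others. The log2 fold change was -6.33 (SE 1.08), with an adjusted p of 0.0636 by edgeR, 1.05e-12 by DESeq2 and 0.173 by limma-voom. Without young replicate 3 it was -4.90.

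Col4a1 and Col4a2, which join in the common type IV trimer of basement membranes, differed far less between the groups. Col4a1 (ENSRNOG00000016281) was at 1945, 2281 and 3635 CPM in young and 1939, 1826 and 1970.0 CPM in old libraries, so that young replicate 3 stood above the rest and young replicate 1 lay among the old libraries. The log2 fold change was -0.46 (SE 0.25, adjusted p = 0.324), and it was -0.14 without young replicate 3. Col4a2 (ENSRNOG00000023972) was at 1363, 1606 and 2442 CPM in young and 1434, 1421 and 1613 CPM in old libraries, with a log2 fold change of -0.28 (SE 0.24, adjusted p = 0.508). Without young replicate 3 the difference of Col4a2 was 0.0049.

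The other type IV chains overlapped between groups and had unadjusted p-values over 0.05. Col4a5 was at 29.2, 55.1 and 80.0 CPM in young and 67.4, 46.2 and 76.0 CPM in old libraries (log2 0.21, SE 0.37). Col4a6, the partner of Col4a5 in smooth muscle basement membranes, was near the limit of detection with 11, 14 and 20 counts in young and 12, 12 and 4 counts in old libraries (log2 -0.69, SE 0.54). Of the short-chain networks, Col8a1, a type VIII chain made by vascular cells, was lower by value at 551, 596 and 861 CPM in young and 293, 425 and 706 CPM in old libraries, with overlap (log2 -0.50, SE 0.35, adjusted p = 0.417). Col8a2 and Col10a1 differed by 0.03 (SE 0.27) and -0.16 (SE 0.55).

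FACIT chains had the highest class median, 0.82, with a range of -3.38 to 2.43. Col14a1 (ENSRNOG00000026415), a fibril-surface collagen that regulates fibril growth, was at 229.9, 145 and 69.7 CPM in young and 596, 684 and 1121 CPM in old libraries. The lowest old library was above the highest young one by more than the whole young range. The mean was 148 ± 80.1 CPM in young and 800.3 ± 281 CPM in old cells (SD, n = 3), a fold of 5.40 (log2 2.43, SE 0.48). The adjusted p was 0.0743 by edgeR, 3.83e-06 by DESeq2 and 0.0814 by limma-voom.

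Col16a1 (ENSRNOG00000031475), a chain found close to the cell surface, was at 146, 132 and 145 CPM in young and 209, 307 and 229 CPM in old libraries. The young libraries were tightly grouped and all old ones lay above them, with a log2 fold change of 0.82 (SE 0.16) and an adjusted p of 0.0743 by edgeR and 0.000413 by DESeq2, below the size threshold. Col12a1, the relative of Col14a1 and the FACIT chain with the most counts, was at 3042, 1484 and 1641 CPM in young and 2428, 5026 and 2881 CPM in old libraries. There young replicate 1 lay above old replicates 1 and 3, and the log2 fold change was 0.75 (SE 0.39, adjusted p = 0.301).

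The remaining FACIT chains were low. Col20a1 (ENSRNOG00000010326) was at 2.88, 3.61 and 2.10 CPM in young and 3.64, 4.96 and 6.62 CPM in old libraries, which just did not overlap (log2 0.83, SE 0.31, adjusted p = 0.193). Col9a3 (ENSRNOG00000009531), a chain of cartilage type IX collagen, had 10, 2 and 6 counts in young and 15, 26 and 19 counts in old libraries, without overlap (log2 1.64, SE 0.63, adjusted p = 0.202). Its partner Col9a2 was at 1.51, 1.68 and 2.32 CPM in young and 1.03, 2.65 and 1.87 CPM in old libraries (log2 0.01, SE 0.39). Col19a1 (ENSRNOG00000012759) had 18, 74 and 20 counts in young and 0, 0 and 10 counts in old libraries. A count of 0 allows up to 3 counts, or 0.0603 CPM in old replicate 1 and 0.0577 CPM in old replicate 2. That limit treats counts as independent and would be higher if both mates of a pair were counted. The fitted log2 fold change of -3.38 (SE 1.20, adjusted p = 0.179) is no bound, since it depends on how zeros are handled. It was -8.14 without old replicate 3 and -2.62 without young replicate 2.

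The beaded chains had a median log2 fold change of 0.79, and each of the 4 was higher in old cells by value. Type VI collagen is assembled from Col6a1, Col6a2 and Col6a3, which are obligatory partners, while Col6a6 encodes a chain that can take the place of the third. Col6a1 (ENSRNOG00000001249) was at 645, 694 and 1204 CPM in young and 1419, 827 and 2029 CPM in old libraries. Col6a2 (ENSRNOG00000001254), which lies beside Col6a1 on chromosome 20, was at 502, 563 and 828 CPM in young and 1039.8, 725 and 1594 CPM in old libraries. Old replicate 2 lay below young replicate 3 for both, so the groups overlapped, with log2 fold changes of 0.75 (SE 0.39, adjusted p = 0.294) and 0.83 (SE 0.33, adjusted p = 0.212).

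Col6a3 (ENSRNOG00000019648) was at 698, 668 and 778 CPM in young and 1471, 409 and 1599.7 CPM in old libraries. Old replicate 2 was the lowest of all libraries and the other old libraries were above all young ones, giving a log2 fold change of 0.70 (SE 0.47, adjusted p = 0.405) and 1.10 without old replicate 2. Col6a6 had 16, 16 and 2 counts in young and 36, 5 and 66 counts in old libraries, with old replicate 2 again the low old library (log2 1.63, SE 0.99).

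The multiplexin Col15a1 (ENSRNOG00000060381) had the lowest adjusted p of the chains by edgeR, while by DESeq2 that of Col4a3 was lower. It encodes the chain of a proteoglycan collagen found between basement membranes and the fibrils around muscle and vessels. It was at 331, 344 and 497 CPM in young and 136, 99.9 and 109 CPM in old libraries, and the highest old library was below the lowest young one. The mean was 391 ± 92.4 CPM in young and 115 ± 19.01 CPM in old cells (SD, n = 3), with a young level 3.40 times the old one (log2 -1.76, SE 0.21). The adjusted p was 0.0531 by edgeR, just over the threshold, 1.32e-11 by DESeq2 and 0.0524 by limma-voom. It was 0.0492 by edgeR where only the 12229 genes above 1 CPM in at least 3 libraries were tested, and the chain was then called. Col18a1, the other multiplexin and the source of endostatin, was at 13.2, 20.0 and 43.0 CPM in young and 25.5, 29.3 and 42.4 CPM in old libraries, with overlap (log2 0.35, SE 0.44).

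The transmembrane chains and Col7a1 were low, and none had an unadjusted edgeR p under 0.05. Col17a1, a hemidesmosome collagen of epithelia, differed by -0.21 (SE 0.46), Col23a1 by 0.87 (SE 0.53), Col25a1 by 0.37 (SE 1.04) and Col7a1 by -0.43 (SE 0.82), with adjusted p-values between 0.363 and 0.852. Col7a1 was at -1.76 without old replicate 2 and at -0.0052 without old replicate 3.

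The ratio of 2 chains within a library needs no scaling between libraries, and 12 such pairs were compared. The groups did not overlap for 5 of them, which reached the smallest p of the exact two-sided permutation test of 3 against 3, 0.1, and an adjusted p of 0.24 over the 12 pairs. No share over other gene pairs was computed, and 29.2% of all single genes did not overlap. Apart from Col4a2 to Col4a1, each of the 5 holds a chain that did not overlap on its own, so these ratios are not separate findings. The log2 ratio of Col3a1 to Col1a1 was -0.17, -0.54 and -0.69 in young and -0.16, -0.13 and 0.39 in old libraries, so that type III was higher relative to type I in old cells. The gap was narrow, since young replicate 1 lay just under old replicate 1. The log2 ratio of Col1a2 to Col1a1 was -0.40, -0.21 and -0.34 in young and -0.52, -0.69 and -0.46 in old libraries. Within type I, the ratio was thus lower in old cells, a mean difference of -0.24.

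In type IV, the log2 ratio of Col4a2 to Col4a1 was -0.51, -0.51 and -0.57 in young and -0.44, -0.36 and -0.29 in old libraries, a mean difference of 0.17. This small shift did not overlap between groups, although neither chain on its own separated them. The log2 ratio of Col12a1 to Col14a1 was 3.73, 3.36 and 4.56 in young and 2.03, 2.88 and 1.36 in old libraries, a difference of -1.79. The log2 ratio of Col18a1 to Col15a1 was -4.64, -4.11 and -3.53 in young and -2.42, -1.77 and -1.36 in old libraries, a difference of 2.24. In those 2 pairs, Col14a1 gained on its fibril-surface relative and Col15a1 lost ground to the other multiplexin. The other 7 ratios, among them Col6a2 to Col6a1 (difference 0.07) and Col5a2 to Col5a1 (difference -0.15), overlapped between groups, with permutation p-values of 0.2 to 0.7 by the same exact test.

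**Figure D4:**
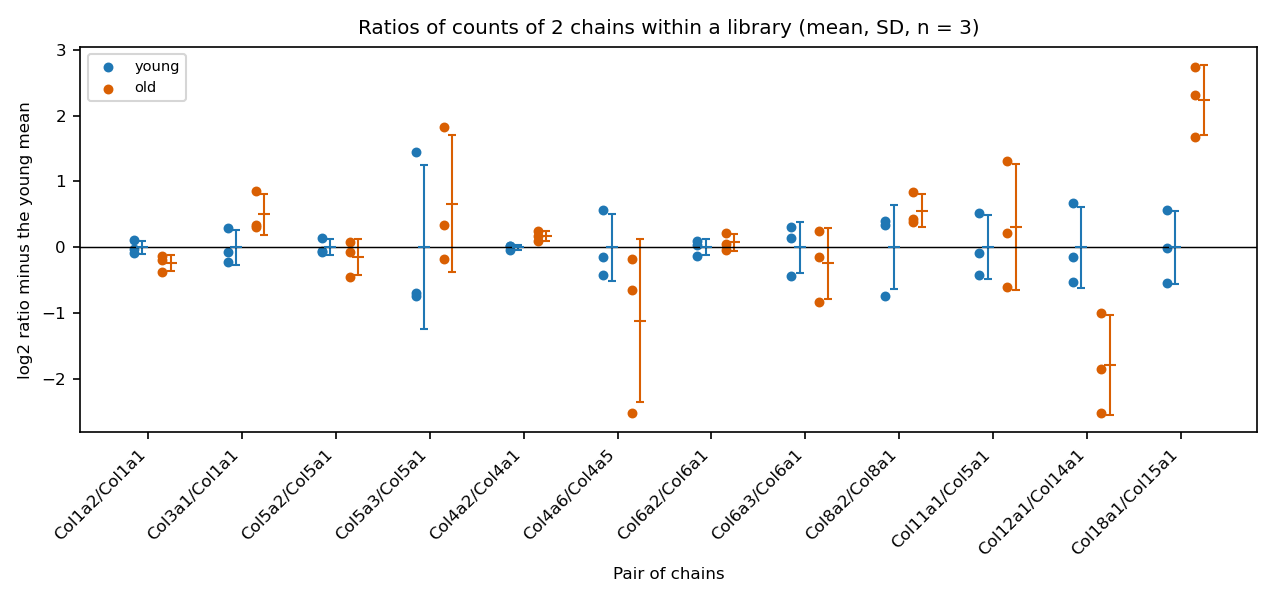
Log2 ratio of the counts of 2 collagen chains within each library for 12 pairs, set relative to the young mean of each pair, with a point for each library and bars for the mean and SD (n = 3). The groups stand apart for Col3a1 to Col1a1, Col1a2 to Col1a1, Col4a2 to Col4a1, Col12a1 to Col14a1 and Col18a1 to Col15a1, and overlap in the other 7 pairs.

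Genes that make, process, degrade or bind collagen were read from the same fit, and edgeR called 0 in each list. Of 21 genes for the hydroxylation and folding of chains, 13 were higher and 8 lower in old cells, with a median log2 fold change of 0.11. An unadjusted p under 0.05 was found for 2, against 22.6% of all genes. These were Plod1, a lysyl hydroxylase (log2 0.66, SE 0.15, adjusted p = 0.0974), and Creb3l1, a transcription factor of collagen-secreting cells (log2 0.60, SE 0.11, adjusted p = 0.0725), both named after their values were seen. Of 10 genes for propeptide processing and crosslinking, 6 were higher and 4 lower, with an unadjusted p under 0.05 for 1 in each direction (22.6% of all genes in both) and 1 DESeq2 call (5.56% of all genes). Tll1, a protease related to the one that removes the carboxyl propeptide of fibrillar collagen, was at 175, 191 and 303 CPM in young and 39.6, 123 and 19.4 CPM in old libraries, without overlap (log2 -1.87, SE 0.67, adjusted p = 0.180).

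The degradation list had the largest number of low p-values of these lists. Besides proteases it holds the metalloproteinase inhibitors Timp1, Timp2 and Timp3 and the receptor Mrc2, which is also counted among the receptors below. Of its 14 genes, 8 were higher and 6 lower. An unadjusted p under 0.05 was found for 6 of the higher and 1 of the lower ones (11.2% and 11.5% of all genes). Timp2 (log2 0.60, SE 0.24, adjusted p = 0.208) and Mrc2 were among those 6, so the count is not one of proteases alone. DESeq2 called 4, of which 3 were higher, against 5.56% of all genes. Mmp2, a gelatinase, was at 1430, 1250 and 789 CPM in young and 1877, 4720 and 3973 CPM in old libraries (log2 1.61, SE 0.40, adjusted p = 0.108). Mmp14, the membrane protease that activates it, was at 414, 447 and 499.6 CPM in young and 628, 933 and 1724 CPM in old libraries (log2 1.27, SE 0.36, adjusted p = 0.130). Neither overlapped between groups, and the same held for Fap, a protease of activated fibroblasts (log2 1.36, SE 0.21, adjusted p = 0.0557). Mmp3, stromelysin, was lower by value and low throughout, with 12 to 106 counts in a library (log2 -1.83, SE 0.61, adjusted p = 0.167).

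Collagen receptors were divided, with 6 of 13 higher and 7 lower in old cells and an unadjusted p under 0.05 for 2 of the higher and 4 of the lower ones (11.2% and 11.5% of all genes). Itga1, the alpha subunit of a collagen-binding integrin with preference for type IV collagen, was at 229, 387 and 323 CPM in young and 72.9, 88.8 and 160 CPM in old libraries (log2 -1.55, SE 0.34, adjusted p = 0.0924). Adgrg6, an adhesion receptor that binds type IV collagen, was at 57.5, 65.4 and 126 CPM in young and 26.9, 10.4 and 15.9 CPM in old libraries (log2 -2.22, SE 0.45, adjusted p = 0.0763). Both were lower in every old library than in any young one, and DESeq2 called both, its only 2 calls among the 13 (against 5.56% of all genes). Mrc2, the receptor that takes up collagen fragments, was at 232, 145 and 58.1 CPM in young and 306, 351 and 283 CPM in old libraries, without overlap in the other direction (log2 1.11, SE 0.46, adjusted p = 0.219). The rest with an unadjusted p under 0.05 were below the size threshold and did not overlap between groups. Ddr2 was higher (log2 0.76, SE 0.20, adjusted p = 0.114). Cd44 (log2 -0.85, SE 0.14, adjusted p = 0.0636) and Itgb1 (log2 -0.85, SE 0.31, adjusted p = 0.189) were lower.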

How the data were processed

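The deposited values were raw counts per gene, which the authors made by trimming reads from stranded polyA libraries, mapping them with STAR to the Rnor 6.0 rat genome and counting with featureCounts. The submitters' processing notes name cutadapt 3.5, FastQC 0.11.9, Trim Galore 0.6.7, MultiQC 1.27.1, STAR 2.7.10b, Subread 2.0.8 and DESeq2 1.46.0. Between 68.7% and 71.1% of low counts were even, as when both mates of a pair are counted. The total of every library was also above the number of reads per sample that the authors give. Counts printed here may therefore be larger than the number of fragments. With all counts halved, edgeR called 1 gene and 0 chains. Young and old libraries (3 rats each) were compared with edgeR 4.0.16 in R 4.3.3 (TMM factors, quasi-likelihood test, Benjamini-Hochberg adjustment over 14475 genes, thresholds of 0.05 and a log2 fold change of 1). CPM values used the same factors. DESeq2 1.42.0 and limma 3.58.1 (voom) were alternatives, as were other scalings, a filter, a replicate block and leaving out each library. DESeq2 gave no adjusted p to 292 genes. The tests were checked on simulated data. Those counts were drawn from the means and dispersions of these same libraries, so they cannot decide between tools that differ here. No transcript lengths were used, so shares, ratios and ranks across genes are of counts and not of numbers of transcripts.

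The collagen chains and the gene lists were chosen with earlier results of these data known. Values are given per library for chains with an unadjusted edgeR p under 0.05 or a DESeq2 call, their partners in a trimer or type, and the 5 with the highest mean CPM. Genes of the other lists are named where the unadjusted p was under 0.05 and the absolute log2 fold change at least 1, at most 4 a list by p, besides defining markers. A few others outside that rule were named after their values were seen.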

Additional observations from a re-analysis of the deposited data

How the results depend on the processing

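The number of chains called depended on the tool and on single libraries. It was 0 by edgeR, 4 by DESeq2, 0 by limma-voom, 1 (Col15a1) with the filter on 1 CPM, and 3 at an adjusted p under 0.1 (where 2.63% of all genes were called). Over all genes edgeR called 1, DESeq2 805, limma-voom 0 (3347 at an unadjusted p under 0.05) and edgeR with the filter 65. Leaving out each library in turn gave 0 to 3 chains by edgeR, where the 3 (Col11a2, Col14a1 and Col15a1, with 732 genes called in all, 5.06%) came without old replicate 1. With DESeq2, added after the data were seen, it gave 4, 5, 5, 6, 6 and 7 chains, with Col3a1, Col4a3, Col14a1 and Col15a1 in every run, beside 551 to 1377 genes called in all. The median of the chains was 0.11 without old replicate 3 and 0.58 without young replicate 3 (0.095 and 0.58 by DESeq2). The difference in the share of counts on all chains was 3.45 to 4.86 percentage points with a library left out, 5.18 without the 100 most abundant other genes in the denominator and 0.33 without Col1a1, Col1a2 and Col3a1 (an alternative added later). DESeq2 called 1 of 10 genes of propeptide processing and crosslinking, 4 of 14 of degradation, 2 of 13 receptors and 2 of 13 other basement membrane proteins (5.56% of all genes), and the filter gave 1 of the last. With a library left out, edgeR called 0 to 3, 0 to 1 and 0 to 2 of the last 3 lists.

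Of the 35 chains, 24 kept their direction in every alternative (at most 14 a chain). By limma-voom Col24a1 was 0.046, Col9a2 -0.062 and Col8a2 -0.0088. With a library left out, the log2 fold change ran from -0.021 to 0.10 for Col5a2, -0.11 to 1.90 for Col5a3, -1.17 to 1.12 for Col24a1, -0.075 to 0.59 for Col27a1, -0.45 to 0.0049 for Col4a2, -0.10 to 0.58 for Col4a5, -0.30 to 0.18 for Col8a2, -0.45 to 0.61 for Col10a1, -0.35 to 0.30 for Col9a2, -0.60 to 0.24 for Col17a1 and -0.28 to 1.67 for Col25a1. The ratio of Col6a3 to Col6a1 ran from -0.49 to 0.044 and that of Col11a1 to Col5a1 from -0.19 to 0.76. The cause of these changes was not tested.

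The sample titles give a replicate number and name no pairing. The correlations of same-numbered deviations were 0.06, 0.31 and 0.29, and those of differently numbered ones ran from -0.45 to 0.35. The highest was that of young replicate 1 with old replicate 2. With 3 libraries a group, these values cannot decide whether same-numbered libraries share a batch. With the replicate block, 1 gene and 0 chains were called, the median of the chains was 0.34, and Col9a2 (-0.063), Col8a2 (-0.015) and Col10a1 (0.0037) changed sign. Of the chains, 8 had a mean under 1 CPM, and their values rest on few counts.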

Other observations

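The other proteins of the basement membrane, in which type IV collagen lies, were read from the same edgeR fit. Among 13 such genes, 10 had lower and 3 higher values in old cells (median log2 -0.13), and edgeR called 0, with an unadjusted p under 0.05 for 1 in each direction (22.6% of all genes in both). Lama5, the laminin alpha5 chain, was at 16.1, 42.3 and 32.4 CPM in young and 3.62, 2.87 and 4.93 CPM in old libraries (log2 -2.99, SE 0.40, adjusted p = 0.0531). Lama2, the laminin alpha2 chain of muscle, was at 53.3, 29.3 and 39.9 CPM in young and 100.3, 108 and 106 CPM in old libraries (log2 1.36, SE 0.21, adjusted p = 0.0574). The groups did not overlap for either chain, and their directions were opposite. DESeq2 called both, its only 2 calls among the 13, against 5.56% of all genes.

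Several collagen genes lie side by side in the GRCr8 annotation. Col4a2 and Col4a1, which share a start region, differed by -0.28 and -0.46, and Col6a1 and Col6a2 by 0.75 and 0.83. Col3a1 and its neighbour Col5a2 differed by 1.31 and 0.04. The start of Col4a3 lies 412 bases from that of Col4a4, which was not analysed here.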
